A study of Saccharomyces cerevisiae with 10 samples.

Results

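*MCH5* (YOR306C), the gene of the plasma membrane transporter that takes up riboflavin, and 7 genes of flavin synthesis were followed in yeast fermenting grape juice: *RIB1*, *RIB7*, *RIB3*, *RIB4* and *RIB5* of riboflavin synthesis, and *FMN1* and *FAD1*, which turn riboflavin into its cofactors. These 8 of the 6600 listed genes were taken by identifier, and the group was picked because *MCH5* was higher in strains with the WY alleles of *MED15*. Values of *MCH5* across the alleles are therefore given as a description, without a test.

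The cultures were 5 strains of the S288C background: 4 with an integrated *MED15* allele, namely LAB (labelled as the wild type genotype), WY7, WY15 and WY23, and a med15 deletion. The Med15 protein sits in the tail of Mediator, through which DNA-bound activators reach RNA polymerase II. Every strain was fermented in 2 separate 5 mL cultures of supplemented white grape juice, and polyadenylated RNA was taken at 35% weight loss, after about 37 h in the 4 strains with *MED15* and 48 h in the deletion. Harvest time and deletion cannot be told apart, nor can a lower level in each cell and a smaller share of cells with the message. The libraries held 22669536 to 29320432 reads, and the message levels below are the deposited counts, each divided by 1 size factor per library. *MED15* itself (YOL051W) stood at 12.1 and 11.9 normalized counts in the deletion and at 8238 to 10958 in the other 8 libraries. *URA3* was at 0 in those 8 libraries and at 3213 and 3214 in the deletion. This difference in *URA3* cannot be told apart from the deletion either.

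Yeast makes riboflavin from GTP and ribulose 5-phosphate and can also take it up from the medium. Riboflavin kinase converts it to FMN and FAD synthetase converts FMN to FAD, and these cofactors serve oxidoreductases of the mitochondrion, the endoplasmic reticulum and the cytosol. The transporter gene is known to be under the control of Put3, the activator that turns on *PUT1* and *PUT2*, the genes of proline breakdown, when proline is used as nitrogen source.

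*MCH5* lies on the minus strand at chrXV:889867-891432 in the R64 build, with a coding length of 1566 bp. *RIB1* (YBL033C) lies at chrII:158656-159693, *RIB5* (YBR256C) at chrII:727386-728102 and *RIB7* (YBR153W) at chrII:547460-548194. *RIB3* (YDR487C, chrIV:1428354-1428980), *FMN1* (YDR236C, chrIV:935236-935892) and *FAD1* (YDL045C, chrIV:372688-373608) share a chromosome, and *RIB4* (YOL143C) is at chrXV:54595-55104. All 8 are protein-coding; *RIB7* is on the plus strand and the other 7 are on the minus strand. None overlaps another annotated gene, and none has a copy at 90% identity or more over at least 150 bp.

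The sequence before *MCH5* is shown because it holds spaced triplets of the kind that Put3 is known to bind. Within 600 bases before the start codon, both strands were searched for CGGNNNNNNNNNNCCG, which was present for 189 of 5898 genes (3.2%). The 30-base stretches below read 5′ to 3′ on the gene's strand, with the triplets in capitals.
MCH5, first capital 501 bases before the start codon, chrXV:891911-891940, minus strand: atgatctCGGgggtggcttcCCGaacatcg
PUT2, 166 bases before, chrVIII:181804-181833, plus strand: gacatctCGGgaagccaactCCGaagccga
PUT1, 280 bases before, chrXII:424899-424928, plus strand: cacgcctCGGgtttcgcatcCCGaaaagca
PUT1, 308 bases before, chrXII:424871-424900, plus strand: ttcctttCGGcaatggctttCCGgttacca
RIB7, 219 bases before, chrII:547234-547263, plus strand: gaatattCGGttatataacaCCGcatcaca
In the better of its 2 orientations, the *PUT2* match had 14 of 16 bases in common with that of *MCH5*, each *PUT1* match 12 and the *RIB7* match 9. The triplets fix 6 of the 16. The letters were absent from the searched window of the other 6 members. A match of letters is not a bound site.

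The wider stretch around the *MCH5* match, from 551 to 436 bases before the start codon (chrXV:891868-891983, minus strand), has the same triplets in capitals: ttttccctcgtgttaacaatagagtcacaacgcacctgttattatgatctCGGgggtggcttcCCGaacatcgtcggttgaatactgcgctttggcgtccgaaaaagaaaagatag. It lies in the 1298 bases between *MCH5* and its upstream neighbour *SLY41*. The heptamer TGACTCA, known as the site of the amino acid starvation activator Gcn4, occurred on either strand within 600 bases for 283 of 5898 genes (4.8%). Among the members it was found before *RIB1*, 49 bases from the start codon (chrII:159728-159750, minus strand): acaataatTGAGTCAttacaaaa, where the capitals give it on the other strand.

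*MCH5* was an abundant message that was higher with the WY alleles and lowest without *MED15*. With the LAB allele it stood at 20714 and 19572 normalized counts. WY7 had 22318 and 36275, WY15 had 49724 and 36229, and WY23 had 50939 and 53590. The deletion had 11355 and 13402. On this scale all 6 WY libraries lay above both LAB libraries. Both deletion libraries lay below the other 8, as in 25.3% of all genes. As a share of all reads, which is the scale of equal library sums, WY7 replicate 1 at 0.0783% lay below LAB replicate 1 at 0.0795%, so that WY7 and LAB overlapped there. The order of the means was the deletion with 12379 ± 1447, LAB with 20143 ± 807, WY7 with 29297 ± 9869, WY15 with 42977 ± 9542 and WY23 with 52264 ± 1875 (SD, n = 2 each). The neighbours WY7 and WY15 touched, at 36275 and 36229, and the lower WY7 library was close to LAB. WY15 and WY23 were apart by little: the higher WY15 library was just under the lower WY23 library.

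**Figure D1:**
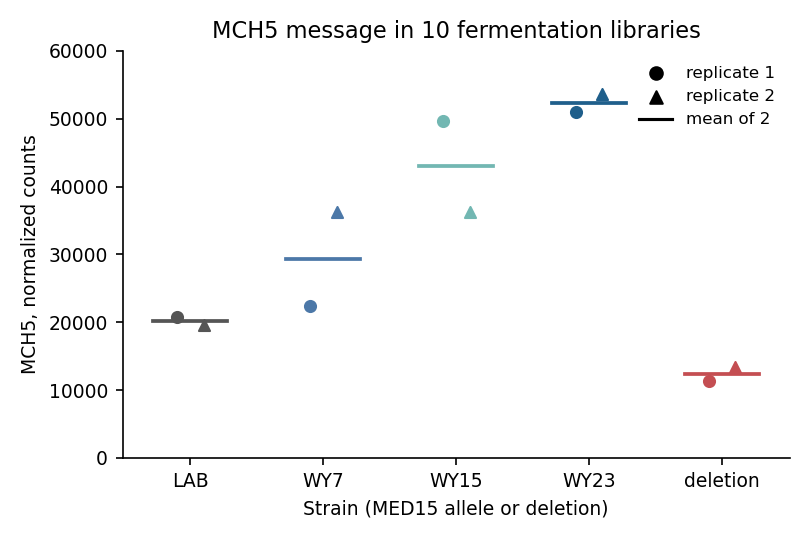
MCH5 level in normalized counts for each strain, with circles for replicate 1, triangles for replicate 2 and a line at the mean of 2. The 6 WY libraries sit between 22318 and 53590, above LAB at 19572 and 20714 on this scale, and the deletion lies lowest at 11355 and 13402.

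Relative to the LAB mean, *MCH5* was 1.454-fold with WY7, 2.134-fold with WY15, 2.595-fold with WY23 and 0.615-fold with the deletion. Over the mean of the 3 WY alleles the log2 difference from LAB was 0.98 (SE 0.20). Among 5720 genes with a mean of at least 50 normalized counts, this was the 2nd highest difference, and *MCH5* also held the 3rd highest place in WY15 and in WY23 taken alone, but the 62nd in WY7. On the deposited scale it was the only one of the 8 members with all 6 WY libraries above both LAB libraries, as were 183 of 6065 genes in all (3.02%). The rule chose it for this, so nothing is read from that share. Scaled to equal library sums, where that separation was lost, the log2 difference was 0.92, after quantile normalization it was 0.82, and it ran from 0.87 without WY7 replicate 2 to 1.10 without WY7 replicate 1.

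The WY7 libraries were 1.63-fold apart in *MCH5*, a gap that 3.86% of genes reached in that strain, and the WY15 libraries were 1.37-fold apart, a gap that 19% of genes reached. LAB and WY23 replicates differed by 1.06-fold and 1.05-fold. Genes of the low-oxygen response and *NDE1* also differed within strains. The summed level of 18 low-oxygen genes was 131065 and 281117 with LAB, 219562 and 285488 with WY7, 244045 and 99529 with WY15, 269774 and 279639 with WY23, and 105372 and 124128 with the deletion, and none of the 18 was at 0 in any library. *OLE1*, a fatty acid desaturase gene, made up most of this sum in LAB, which without it was 53290 and 77509 there. In the deletion against LAB, limma called 3 of the 18 higher and 3 lower, beside 18.9% and 17.7% of all genes. *ROX1* and *UPC2*, regulators in this response rather than its end products, were counted in the 18, and both were called lower. *UPC2*, at -1.51 (limma adjusted p = 0.049), was close to the threshold. Its change ran from -2.28 to -0.75 over 12 fits that left libraries out. The other gene called lower was *COX5B*, at -1.17 (limma adjusted p = 0.000505). *NDE1*, an external NADH dehydrogenase of mitochondria, was at 17033 and 7815 in WY7, with the higher value in the library where *MCH5* was low. It was at 9889 and 18133 in LAB and at 5155 to 6629 in WY15 and WY23. The part of these genes in the *MCH5* values was not tested. The log2 difference of *MCH5* between the WY mean and LAB was 1.10 without LAB replicate 1 and WY15 replicate 2, the lowest *MED15* libraries in low-oxygen genes. It was 1.06 without LAB replicate 2 and WY7 replicate 1, the highest in *NDE1*. Both omissions were chosen after seeing the data.

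None of the 5 genes of riboflavin synthesis had all 6 WY libraries above both LAB libraries. They are given in the order of the pathway. *RIB1*, GTP cyclohydrolase II of the first step, stood at 10155 and 9174 with LAB, 9141 and 10588 with WY7, 12371 and 10662 with WY15, 12067 and 12977 with WY23 and 9003 and 8826 with the deletion. WY15 and WY23 were above LAB and WY7 overlapped it. *RIB7*, the reductase that follows, was low and even, at 2499 and 2389 with LAB, 2367 and 2266 with WY7, 2621 and 2488 with WY15, 2354 and 2322 with WY23, and 2222 and 2033 with the deletion. *RIB3*, which makes the butanone phosphate from ribulose 5-phosphate, was at 11051 and 11069 with LAB, 12311 and 14105 with WY7, 10401 and 10519 with WY15, 13633 and 13804 with WY23, and 7679 and 8036 with the deletion. WY7 and WY23 were above LAB, WY15 was below it and the deletion was lowest.

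*RIB4*, the lumazine synthase that joins both branches, was at 6021 and 4800 with LAB, 5515 and 5693 with WY7, 5100 and 6158 with WY15, 5085 and 5159 with WY23, and 4025 and 4258 with the deletion. Of the 6 WY libraries 5 lay within the LAB range, and WY15 replicate 2 lay just above it. *RIB5*, riboflavin synthase of the last step, was the most abundant of the synthesis genes, at 29990 and 25599 with LAB, 30466 and 38265 with WY7, 26864 and 31042 with WY15, 36132 and 37957 with WY23, and 19754 and 22484 with the deletion. WY7 and WY23 were above LAB, WY15 overlapped it and the deletion was below all. Of the cofactor genes, *FMN1*, riboflavin kinase, was flat at 1639 to 1972 in the 8 *MED15* libraries and was 2066 in both deletion libraries. *FAD1*, FAD synthetase, was at 2081 to 2355 in those 8 libraries and at 1589 and 1744 in the deletion.

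**Figure D2:**
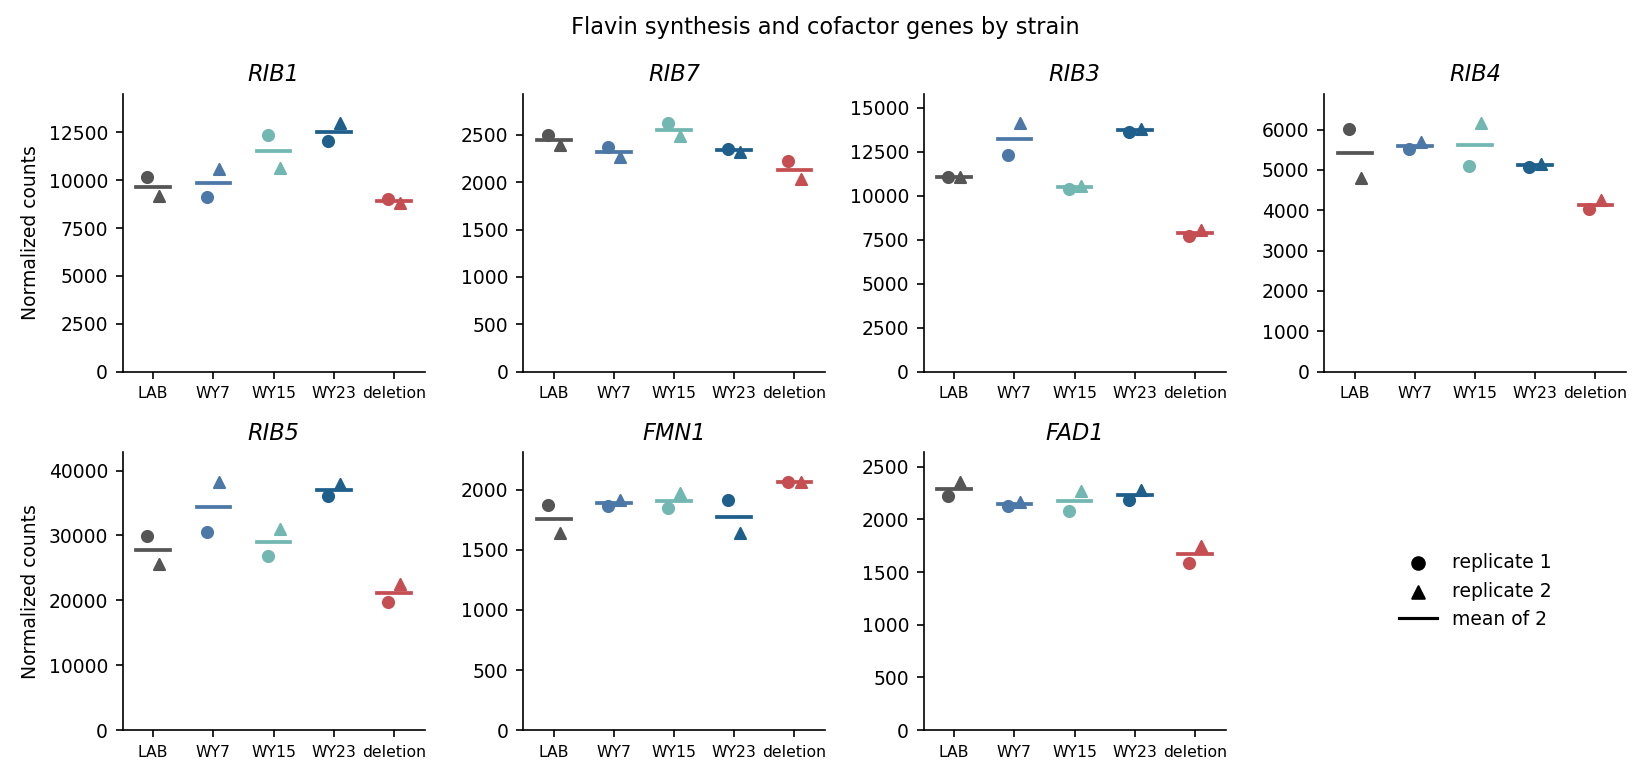
Level of the 7 flavin genes other than MCH5 in normalized counts by strain, each panel with its own axis from 0, circles and triangles for replicates 1 and 2 and a line at their mean. The deletion is lowest in 6 panels and highest in that of FMN1, at 2066 in both libraries.

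Per kb of coding length, which allows levels of different genes to be compared, the LAB means were 38765 normalized counts for *RIB5*, 17640 for *RIB3*, 12863 for *MCH5*, 10609 for *RIB4*, 9311 for *RIB1*, 3326 for *RIB7*, 2674 for *FMN1* and 2484 for *FAD1*. In WY23 *MCH5* reached 33374 per kb and stood above *RIB3* at 21879, with *RIB5* still higher at 51666. In the deletion *MCH5* was at 7905 per kb, below *RIB4* at 8121 and *RIB1* at 8588. The ratio of *MCH5* to the geometric mean of the 5 *RIB* genes does not depend on library scaling. It was 2.37 and 2.49 with LAB, 2.62 and 3.85 with WY7, 5.80 and 4.11 with WY15, 5.45 and 5.58 with WY23, and 1.73 and 1.99 with the deletion. The 6 WY libraries were above LAB in this ratio and the deletion was below all others. Since *MCH5* was picked for its rise in the WY alleles, this is a description and nothing is read from it.

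Against LAB, the log2 difference of the mean of the WY alleles was 0.26 (SE 0.13) for *RIB5*, 0.22 (SE 0.10) for *RIB1*, 0.16 (SE 0.08) for *RIB3* and between -0.07 and 0.08 for *RIB4*, *RIB7*, *FMN1* and *FAD1*. Since the group was picked on this comparison, these are descriptions. In the whole table limma's moderated test called 0 of 6065 genes (0%) for the mean of the WY alleles against LAB at an adjusted p under 0.05. At an unadjusted p under 0.05 it passed 300 (4.95%), edgeR called 0 and DESeq2 called 9 (0.148%).

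The differences among the WY alleles were not used to choose the genes and were tested with limma. 0 of the 7 genes other than *MCH5* passed in any of the 3 pairs, and 0 of 6065 genes did (0% in each pair). At an unadjusted p under 0.05, 1 of the 7 passed in each pair, and of all genes 711 (11.7%) passed for WY7 against WY15, 320 (5.28%) for WY7 against WY23 and 408 (6.73%) for WY15 against WY23. edgeR called 0 genes in each and DESeq2 called 155 (2.56%), 11 (0.181%) and 47 (0.775%). *RIB3* in WY7 minus WY15 was at a log2 of 0.33 (SE 0.10, limma adjusted p = 0.293), and in WY15 minus WY23 at -0.39 (SE 0.10, limma adjusted p = 0.522). The libraries of WY15 did not overlap those of either strain in this gene. How many of all genes separate in this way was not counted, so nothing is read from it. DESeq2 called *RIB3* in both pairs, with adjusted p of 0.0215 and 0.00461. *RIB1* differed by -0.35 (SE 0.12, limma adjusted p = 0.859) between WY7 and WY23, and *RIB5* by -0.36 (SE 0.16, limma adjusted p = 0.743) between WY15 and WY23.

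Without *MED15*, *RIB3* and *FAD1* fell against LAB on the deposited scale, and none of the 7 rose. There limma gave *RIB3* a log2 change of -0.49 (SE 0.10, adjusted p = 0.00556) and *FAD1* one of -0.46 (SE 0.09, adjusted p = 0.00488). Both deletion libraries were below both LAB libraries in each, as in 34.1% of all genes. These 2 of 7 genes, both lower, stand beside 1072 of 6065 genes called lower (17.7%), 1147 called higher (18.9%) and 2219 called in all (36.6%). The share among the flavin genes is near this background. DESeq2 also called *RIB4* and *RIB5* lower, so 4 of the 7 in all, each of them lower. Of all genes it called 20.1% lower and 41.5% in either direction. The other 5 did not pass limma's test: *RIB5* differed by -0.39 (SE 0.16, adjusted p = 0.0903), *RIB4* by -0.38 (SE 0.13, adjusted p = 0.0543), *RIB7* by -0.20 (SE 0.08), *RIB1* by -0.11 (SE 0.12) and *FMN1* by 0.24 (SE 0.10). The median of the 7 was -0.38, beside 0 for all genes.

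Against the mean of the WY alleles, 5 of the 7 fell and 0 rose, where 24% of all genes were called lower, 25.1% higher and 49.1% in all. By limma, *RIB3* changed by -0.65 (SE 0.08, adjusted p = 0.000343), *RIB5* by -0.65 (SE 0.13, adjusted p = 0.00419), *FAD1* by -0.39 (SE 0.07, adjusted p = 0.00262), *RIB4* by -0.39 (SE 0.11, adjusted p = 0.0162) and *RIB1* by -0.33 (SE 0.10, adjusted p = 0.0228). *RIB7* at -0.18 (SE 0.07) and *FMN1* at 0.16 (SE 0.09) did not pass. Both comparisons use the same 2 deletion libraries. Calls for *RIB1* and *RIB4* were lost without either deletion library, with limma adjusted p of 0.0978 and 0.12 for *RIB1* and 0.114 and 0.0631 for *RIB4*, and that for *RIB1* also without WY23 replicate 2 (adjusted p = 0.0579). *RIB5* was lost without deletion replicate 1 (adjusted p = 0.052).

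The direction of several of these changes depends on the scaling. The deposited values of the deletion sum to 0.751 of those of the other strains on average. Scaling all libraries to equal sums moved the median of all genes in the deletion against LAB from 0 to 0.36. On that scale *RIB3* was at -0.13, *FAD1* at -0.10, *RIB5* at -0.04, *RIB4* at -0.02, *RIB7* at 0.16, *RIB1* at 0.25 and *FMN1* at 0.60 against LAB, and limma called *FMN1* alone (adjusted p = 0.00537). There 47.3% of all genes were called higher and 7.01% lower. Taken relative to the median of all genes, *RIB3* was at -0.49 and *FMN1* at 0.24 on either scale. After quantile normalization *FAD1* at -0.48 was called (limma adjusted p = 0.00632), *RIB3* at -0.23 was not, and *RIB5* turned to 0.38, with 20.1% of all genes called higher and 19% lower. Against the WY alleles, limma on equal sums called *FMN1* at 0.58 and *RIB7* at 0.25 higher and *RIB3* at -0.23 lower, where 60.5% of all genes were called higher and 7.73% lower. After quantile normalization it called *FAD1* at -0.42 and *RIB3* at -0.32 lower, where the shares of all genes were 24.7% higher and 24.3% lower. On the deposited scale both deletion libraries were below all 8 others in 6 of the 7 genes, as in 25.3% of all genes, and above them in *FMN1*, as in 26.6%. On equal sums they were below in 0 of the 7 (7.54% of all genes) and above in *RIB7* and *FMN1* (57.7%).

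*MCH5* in the deletion was 1.627-fold below LAB, a log2 difference of -0.71 (SE 0.24), and -1.69 (SE 0.20) from the mean of the WY alleles. It lay below LAB at -0.35 on equal sums and at -0.27 after quantile normalization. From the lowest end, *MCH5* ranked 502nd of 5720 genes against LAB and 127th against the WY alleles. Since the rule used the levels of *MCH5* in LAB and the WY alleles, these differences and ranks are descriptions.

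**Figure D3:**
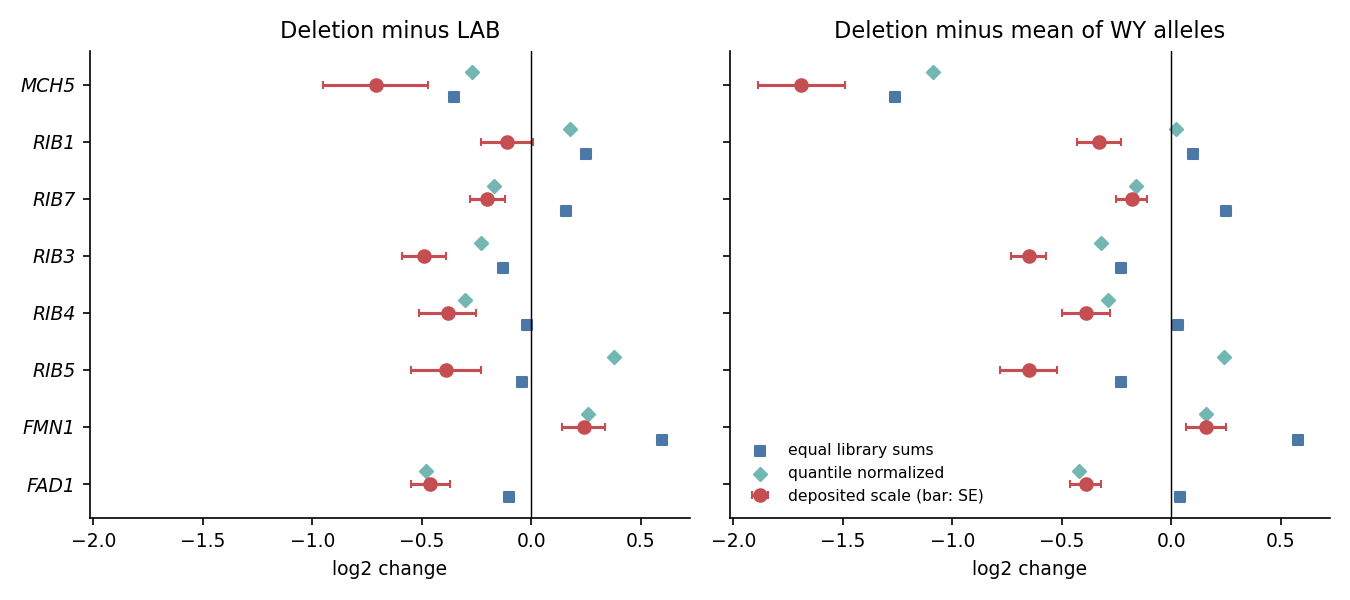
Log2 change of the 8 genes in the deletion against LAB (left) and against the mean of the WY alleles (right), with circles and SE bars on the deposited scale, squares after scaling to equal library sums and diamonds after quantile normalization. RIB1 and RIB7 change side with equal sums in both panels, RIB5 does so with quantile normalization, and RIB3 and MCH5 lie below 0 on all 3 scales in both panels.

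Of 2 further genes of the pathway, both were called higher in the deletion on the deposited scale, beside 18.9% of all genes against LAB and 25.1% against the WY alleles, and *RIB2* alone after quantile normalization. *RIB2*, the deaminase of riboflavin synthesis, was at 1741 and 1593 in LAB and 2139 and 2134 in the deletion, and *FLX1*, the mitochondrial FAD carrier, at 480 and 437 against 633 and 612. Each deletion library was above both LAB libraries in these genes, as in 2157 of 6065 genes in all (35.6%). By limma *RIB2* rose by 0.36 (SE 0.08, adjusted p = 0.0102) against LAB and 0.31 (SE 0.07, adjusted p = 0.00571) against the WY alleles, and *FLX1* by 0.44 (SE 0.11, adjusted p = 0.0128) and 0.26 (SE 0.09, adjusted p = 0.037). The *RIB2* call against LAB was lost without LAB replicate 2, alone or together with WY7 replicate 1, the *FLX1* call against LAB in 3 of 12 fits that left libraries out and that against the WY alleles in 7 of 12. After quantile normalization *FLX1* stood at 0.05 and -0.18. In the WY alleles against LAB, *RIB2* differed by 0.05 (SE 0.07) and *FLX1* by 0.18 (SE 0.09).

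*MCH5* belongs to a family resembling monocarboxylate permeases. Of its 4 homologues, *MCH2* rose in the deletion on the deposited scale, beside 18.9% of all genes called higher against LAB, and 3 did not pass. On equal library sums 2 of the 4 were called higher against LAB, and after quantile normalization also 2. The shares of all genes were 47.3% and 20.1%. Against the WY alleles the counts were again 2 and 2, beside 60.5% and 24.7% of all genes. *MCH2* was at 422 and 526 with LAB, 421 and 315 with WY7, 307 and 404 with WY15, 391 and 269 with WY23, and 1553 and 1013 with the deletion. The deletion was above all other libraries, as in 26.6% of all genes, the reverse of *MCH5*. Its log2 change by limma was 1.41 (SE 0.27, adjusted p = 0.00521) against LAB and 1.85 (SE 0.22, adjusted p = 0.000335) against the WY alleles. *MCH1*, *MCH4* and *ESBP6* differed by -0.12, -0.00 and 0.04 against LAB. In the WY alleles against LAB, the 4 homologues ran from -0.44 for *MCH2* to 0.21 for *MCH4*.

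Among the 4 genes of proline use, whose activator Put3 is also known to act on *MCH5*, *PUT1* and *PUT4* fell in the deletion against LAB, beside 17.7% of all genes called lower. *PUT1*, mitochondrial proline oxidase and itself an FAD enzyme, was at 65184 and 82484 with LAB, 75351 and 71670 with WY7, 80527 and 58987 with WY15, 78424 and 73227 with WY23, and 27000 and 17597 with the deletion. The deletion was far below all 8 other libraries, and both its libraries lay below them in 25.3% of all genes. The WY libraries spread around LAB. By limma *PUT1* changed by -1.75 (SE 0.25, adjusted p = 0.0013) in the deletion against LAB, and *PUT4*, the proline permease, by -2.19 (SE 0.37, adjusted p = 0.00289). *PUT2*, the next enzyme of proline breakdown, was at 25956 and 24560 in LAB and 21894 and 18886 in the deletion, a change of -0.31 (SE 0.16, limma adjusted p = 0.168) that was 0.41 after quantile normalization. *PUT3* differed by -0.12 (SE 0.09, limma adjusted p = 0.354).

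Against the mean of the WY alleles, limma gave *PUT1* -1.74 (SE 0.20, adjusted p = 0.000267), *PUT4* -1.79 (SE 0.31, adjusted p = 0.00184) and *PUT3* -0.23 (SE 0.08, adjusted p = 0.0353), the last of which was lost in 7 of 12 fits that left libraries out, and *PUT2* did not pass at -0.32 (SE 0.13). Of all genes, 24% were called lower in the deletion against the WY alleles. After quantile normalization 1 of the 4 proline genes was called higher and 2 lower, beside 24.7% and 24.3% of all genes. On equal library sums 0 were called higher and 2 lower, beside 60.5% and 7.73%. Between the WY alleles and LAB, where *MCH5* was at 0.98 (SE 0.20), *PUT1* was at -0.01 (SE 0.20) and *PUT2* at 0.01 (SE 0.13). There *PUT3* was at 0.11 (SE 0.08) and *PUT4* at -0.41 (SE 0.31). The ratio of *MCH5* to *PUT1* was 0.318 and 0.237 with LAB, 0.296 and 0.506 with WY7, 0.617 and 0.614 with WY15, 0.65 and 0.732 with WY23, and 0.421 and 0.762 with the deletion. WY15, WY23 and the deletion were above LAB in this ratio, and WY7 overlapped it.

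**Figure D4:**
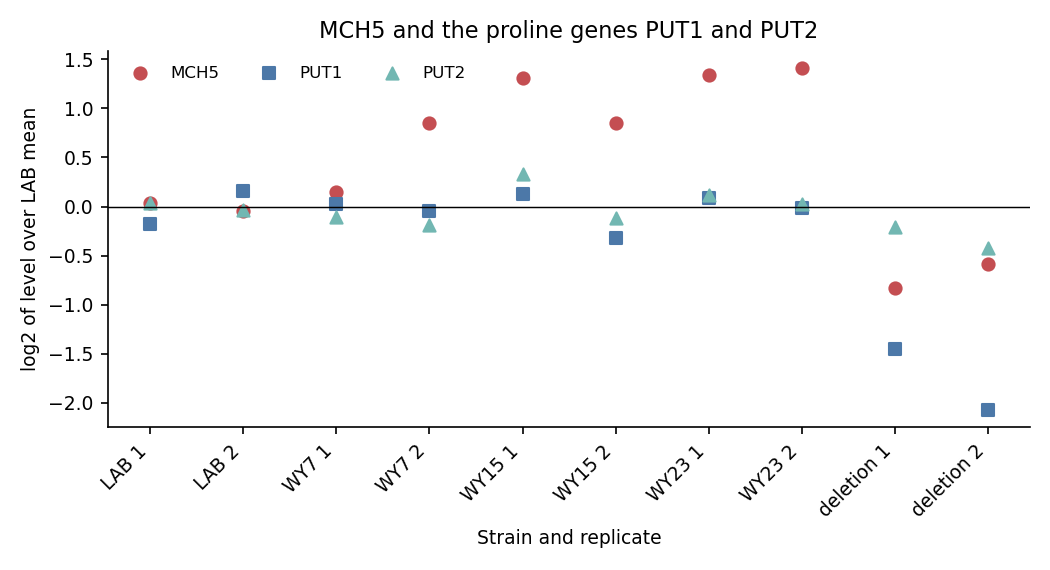
Log2 of the level over the LAB mean for MCH5 (circles), PUT1 (squares) and PUT2 (triangles) in each of the 10 libraries, with a line at 0. In the WY libraries MCH5 lies above the line, by little in WY7 replicate 1 and most in WY23, PUT1 and PUT2 lie on both sides of it, and all 3 lie below it in the deletion.

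Of 8 transporters for other vitamins, *THI7*, the thiamine transporter, fell in the deletion, beside 17.7% of all genes called lower against LAB, and 0 were called between the WY alleles and LAB, where they ran from -0.14 to 0.21. *THI7* was at 59578 and 81955 in LAB and at 32051 and 30782 in the deletion. Both deletion libraries were below both LAB libraries, as in 34.1% of all genes. Its log2 change by limma was -1.15 (SE 0.21, adjusted p = 0.00357) against LAB and -1.29 (SE 0.17, adjusted p = 0.00049) against the WY alleles, and after quantile normalization it was 0.11 and 0.10. *THI72* was called higher against LAB at 0.31, a call lost in 7 of 12 fits that left libraries out. *TNA1*, the nicotinic acid transporter, was called against the WY alleles at -0.61 (SE 0.15, limma adjusted p = 0.0108), a call lost without deletion replicate 2, and it was 0.29 after quantile normalization. *VHT1*, the biotin transporter, differed by 0.38 (SE 0.19) against LAB and did not pass.

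The enzymes that carry the cofactors were called in both directions in the deletion. Of 46 FAD enzymes, limma called 7 higher and 9 lower against LAB, with a median change of -0.02, and 11 higher and 11 lower against the WY alleles. These shares are near those of all genes, of which 36.6% and 49.1% were called in either direction. Of 17 FMN enzymes it called 2 higher and 3 lower against LAB, with a median of -0.09, and 5 higher and 6 lower against the WY alleles. On equal library sums the FAD enzymes had 22 higher and 4 lower against LAB and the FMN enzymes 7 and 1, beside 47.3% and 7.01% of all genes. After quantile normalization the counts were 12 and 6, and 4 and 3, beside 20.1% and 19%. Between the WY alleles and LAB, 0 of these 63 enzymes were called by limma, 5 passed at an unadjusted p under 0.05, and the median was -0.02.

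Besides *PUT1*, the FAD enzymes with the largest changes were the ferric reductases *FRE2* and *FRE1*, which rose, and acetolactate synthase *ILV2* of branched-chain amino acid synthesis, which fell. *FRE1* was at 494 to 721 in the 8 *MED15* libraries and at 1890 and 1695 in the deletion, and *FRE2* at 199 to 274 against 859 and 693. Both deletion libraries were above the other 8 in each gene, as in 26.6% of all genes. By limma, *FRE2* changed by 1.55 (SE 0.17, adjusted p = 0.00043) and *FRE1* by 1.47 (SE 0.16, adjusted p = 0.000409) against LAB. *ILV2* changed by -1.31 (SE 0.15, adjusted p = 0.000548), and by -0.11 after quantile normalization, where it was not called. Abundant FAD enzymes such as *MCR1*, a cytochrome reductase, at -0.46 (SE 0.20) and glutamate synthase *GLT1* at -0.43 (SE 0.15) did not pass against LAB.

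Among the FMN enzymes, *YCP4*, a flavodoxin-like protein, and *RFS1* fell against LAB, and the tRNA dihydrouridine synthase *SMM1* rose. By limma *YCP4* changed by -1.03 (SE 0.21, adjusted p = 0.00696), *RFS1* by -0.55 (SE 0.10, adjusted p = 0.00397) and *SMM1* by 0.68 (SE 0.15, adjusted p = 0.00809). *OYE3*, an old yellow enzyme, was called at 0.64 (SE 0.19, adjusted p = 0.0332), lost in 6 of 12 fits that left libraries out. *CYB2*, lactate dehydrogenase of the mitochondrion, ranged from 690 to 2261 wherever *MED15* was present. It reached 3861 and 3601 in the deletion, above the other 8 libraries, as in 26.6% of all genes. It was called against the WY alleles at 1.70 (SE 0.41, limma adjusted p = 0.01) but not without either deletion library, and not against LAB at 1.26 (SE 0.51). Abundant *OYE2* at -0.35 (SE 0.23) and *FAS1*, a fatty acid synthase subunit, at -0.51 (SE 0.47) did not pass against LAB.

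The genes with the profile most like that of *MCH5* were found by the root mean square difference of log2 levels, each centred on its own mean of the 10 libraries, among 5131 named genes with a mean of at least 50. This difference was 0.279 for *ASN1*, asparagine synthetase, 0.287 for *GPP2*, a glycerol phosphatase, and 0.314 for *PHM8*, another phosphatase. It was 0.318 for the enolase gene *ENO2* and 0.323 for *NSR1*, a nucleolar protein, beside a median over all genes of 0.78. *ENO2* is 94.9% identical to *ENO1*, so reads may be split between them. Like *MCH5*, *GPP2* had all 6 WY libraries above LAB on the deposited scale, as did 3.02% of all genes. On equal library sums WY7 replicate 1 lay below LAB replicate 1 in *GPP2* too. On the deposited scale *GPP2* was at 19671 and 17553 in LAB, 20027 to 36977 in the WY strains and 6880 and 9367 in the deletion. *ASN1* was at 65418 and 35865 in LAB, 53017 to 92192 in the WY strains and 21269 and 25405 in the deletion, so that the WY range overlapped LAB. Within 600 bases of the start codon, 1 match each to CGGNNNNNNNNNNCCG and to TGACTCA was found before *ASN1*, and neither before the other 4 of these 5 genes.

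The deletion weighs on this list. Over the 8 *MED15* libraries alone the closest 6 were *ARG3*, *DED1*, *OAC1*, *ERO1*, *RGS2* and *HMT1*, with differences from 0.216 to 0.286, and 0 genes were shared with the list over 10 libraries. None of the other 7 members was among the closest 6 over the 10 libraries. Of the 5131 genes compared there, *RIB5* ranked 184th, *RIB3* 263rd, *RIB1* 324th, *FAD1* 886th, *RIB4* 1091st, *RIB7* 1661st and *FMN1* 3232nd, while *PUT1* ranked 201st.

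**Figure D5:**
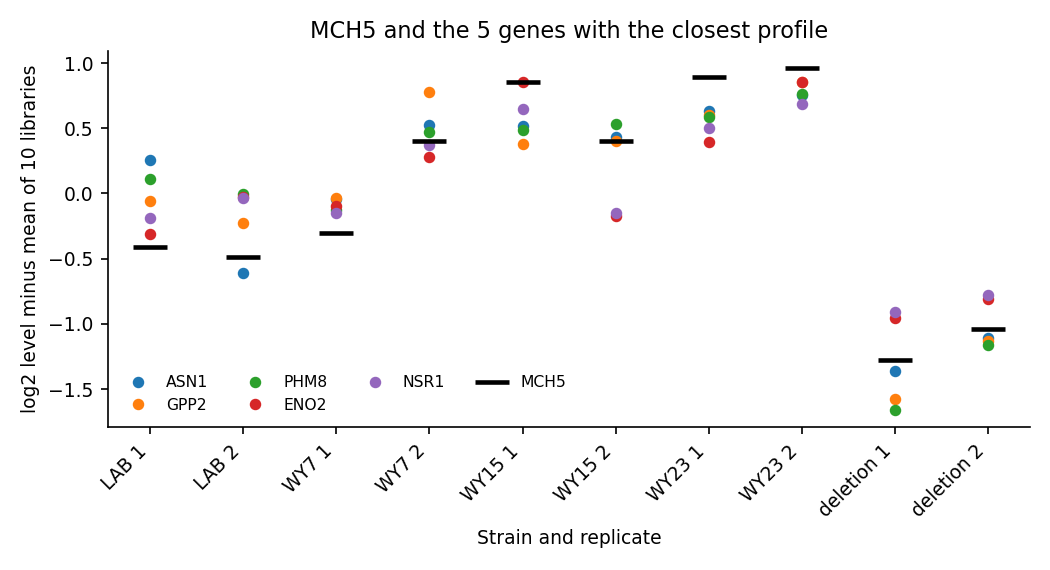
Log2 level minus the mean of 10 libraries for MCH5 (bars) and the 5 genes with the closest profile (coloured points) in each library. All 6 genes are lowest in both deletion libraries, and in both LAB libraries MCH5 lies below most of the 5.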

How the data were processed

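Messenger RNA was measured in 10 libraries, 2 biological replicates for each of 5 strains, per the labels. DESeq2, featureCounts, Bowtie2 and Trim Galore, with the builds R64 and sacCer3, are named in the submitters' processing notes; versions, settings and strand use were not given in the sources used here. The signal deposited by the authors is a read count per gene divided by 1 DESeq2 size factor per library. Reads were recovered from it (100% of values whole within 1e-06) and fed to edgeR and DESeq2.

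The main test was limma 3.58.1 (R 4.3.3) on log2(value + 1) for 6065 genes with a mean of at least 10, in 1 fit of 5 group means with 5 residual degrees of freedom, a variance trend, two-sided tests and Benjamini-Hochberg adjustment at 0.05 over all genes in each comparison. Log2 changes carry the pseudocount of 1. DESeq2 1.42.0, edgeR 4.0.16 and other scalings, filters, pseudocounts and left-out libraries were tried, and the test was checked on simulated data. *MCH5* was counted with 14033 to 53810 reads per library. Replicate numbers do not pair the strains: of 10 correlations between strains, 3 exceeded 0.1, and they ran from -0.50 to 0.41.

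The members and gene lists were chosen with earlier results of these data known. Named genes are all members, lists of up to 8 genes in full or in part, for longer lists at most 4 that passed, by size of change, and at most 2 abundant ones that did not, and 5 of the 6 closest profiles; the other is not reported here. *ROX1* and *NDE1* were also named, outside these limits. Gene names, positions and sequence came from the R64 reference, where 5917 identifiers matched and 683 did not. *DAN2* and *DAN3* of 20 low-oxygen genes had no match.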

Additional observations from a re-analysis of the deposited data

How the results depend on the processing

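The count of the 7 flavin genes other than *MCH5* called in the deletion against LAB was 2, and became 1 with equal library sums (*FMN1*, higher), 1 with quantile normalization and 4 with DESeq2. Against the mean of the WY alleles it was 5, and became 3 with equal sums (*FMN1* and *RIB7* higher, *RIB3* lower) and 2 with quantile normalization. Leaving out 1 library gave 2 to 3 and 2 to 5 genes, the lowest without deletion replicate 1 (2) and replicate 2 (3). DESeq2 called 1 gene each for WY7 against WY15 and WY15 against WY23, where limma called 0, also with each library left out. The log2 difference of *MCH5* in the deletion against LAB was -0.35 on equal sums and -0.27 after quantile normalization, beside -0.59 to -0.83 with 1 library left out. The 2219 genes called in all against LAB became 1413 without LAB replicate 2 and WY7 replicate 1, and 1480 to 2500 with 1 library left out. Against LAB the sign turned with equal sums for *RIB1* (0.25) and *RIB7* (0.16) and with quantile normalization for *RIB1* (0.18) and *RIB5* (0.38). Against the WY alleles it turned with equal sums for *RIB1* (0.10), *RIB4* (0.03), *RIB7* (0.25) and *FAD1* (0.04), and with quantile normalization for *RIB1* (0.02) and *RIB5* (0.24). The cause was not tested. Without LAB replicate 1 and WY15 replicate 2, a pair also chosen after seeing the data, 2 genes were called against LAB and 6 against the WY alleles. The replicate block changed no call among the members (2 and 5 genes), with 2051 genes called in all against LAB. Without LAB replicate 2 and WY7 replicate 1, chosen after seeing the data, 2 and 5 were called, with *RIB4* in place of *FAD1* against LAB (limma adjusted p = 0.0544 for *FAD1*). *RIB4* was also called there without either WY15 library, and without LAB replicate 2 (-0.54, adjusted p = 0.0236 by limma). With 2 libraries a strain, p-values measure the spread between single fermentations.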
